A study of Mesocricetus auratus with 38 samples.

Results

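Cytochrome P450 genes of families 1 to 4 were described in the liver of Golden Syrian hamsters. The members were the rows of the deposited tables whose gene symbol starts with Cyp, a family number from 1 to 4, a subfamily letter and a number, which gave 23 of 14631 gene symbols. Family 1 held 3 of them (Cyp1a1, Cyp1a2 and Cyp1b1), family 2 held 11, family 3 held 1 (Cyp3a13) and family 4 held 8. The tables name genes by symbol alone, so P450 genes under other names are not counted here. All animals were males, and their labels give an age of 22 weeks. The control group (Chow diet, 9 libraries) was kept for 12 weeks on chow in which fat made up 11% of the energy. The HFD group (10 libraries) was fed for the same 12 weeks a diet in which fat made up 23% of the energy, with cholesterol added at 1 g/kg, and got a placebo during the last 4 weeks. The Dose I group (HFD + MI_D1, 9 libraries) and the Dose II group (HFD + MI_D2, 10 libraries) ate the HFD and received combined metabolic activators (CMA) in the last 4 weeks. Dose I held 200 mg/kg each of L-carnitine, N-acetylcysteine and nicotinamide riboside, given in diluted condensed milk, and 400 mg/kg of betaine in the drinking water. Dose II held 400 mg/kg of each of the first 3 and 800 mg/kg of betaine. Whole liver was sequenced, and each library was taken as 1 animal because the labels name none. P-values therefore measure the spread between these libraries.

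P450 enzymes of families 1 to 4 are heme proteins, mainly of the endoplasmic reticulum. They insert an oxygen atom into their substrates, mainly with electrons from P450 oxidoreductase. Families 1, 2 and 3 are best known for the oxidation of drugs and other foreign compounds, though some members act on steroids, bile acids or vitamin D, while family 4 hydroxylates the end of fatty acids and eicosanoids. In the liver, many of them are driven by receptors that sense foreign compounds, such as Ahr, Nr1i2 (PXR) and Nr1i3 (CAR), or fatty acids, such as Ppara.

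Total estimated counts, which are the reads that kallisto assigns to genes, lay between 4.08e+06 and 1.04e+07 per library. Control library C105 (named by its group and the number in its label) stood apart from the rest. On the first principal component of the 500 most variable genes it scored 19.2, while the other controls lay between -23.1 and -12.7 and all other 37 libraries between -23.1 and 12.3. Of the 17 members that were tested, C105 in TMM-scaled CPM lay below all 8 other controls for 6 (Cyp1b1, Cyp2c55, Cyp2e1, Cyp2g1, Cyp2r1 and Cyp4v3) and above all of them for 2 (Cyp2f2 and Cyp4f14). The study left out 1 control after its own principal component analysis without naming it, so taking C105 as that control is an inference. Values are given here over the 37 libraries without C105, and values with C105 in the fit are given beside the calls of members against control and beside the counts of the gene lists. Near-identical P450 genes can trade reads in these estimates, so a value of 1 member of a subfamily carries that uncertainty. In whole liver, fewer cells of a type and less RNA per cell cannot be told apart.

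Transcript levels of the members spanned several orders of magnitude. Levels between genes were compared in TPM, which divides by transcript length and by the total of the library. Cyp2e1, which oxidizes ethanol, acetone and small solvents in pericentral hepatocytes, led with a mean of 7231 TPM over the 37 libraries and was rank 18 of all 14631 symbols. Cyp3a13, a member of the main drug-metabolizing family, followed at 2289 TPM, and Cyp1a2, which oxidizes caffeine and aromatic amines, at 915 TPM. Next came Cyp2c70, known in the mouse for hydroxylating bile acids, at 734 TPM, and Cyp4a30b, of a subfamily of fatty acid omega-hydroxylases, at 612 TPM. Cyp2c55, which hydroxylates arachidonic acid in the mouse, reached 469 TPM, and Cyp2f2, known for activating naphthalene in the mouse lung, reached 343 TPM. The 10 highest members ended with Cyp2j6, of an arachidonic acid epoxygenase subfamily, at 180.1 TPM, Cyp4f14, a hydroxylase of leukotrienes and fatty acids, at 92.9 TPM, and Cyp2u1, a hydroxylase of long-chain fatty acids, at 85.6 TPM.

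A lower tier held Cyp4v3, also a fatty acid hydroxylase, at 49.9 TPM, Cyp4b1, an enzyme better known from lung and kidney, at 37.4 TPM, Cyp4f13 at 20.4 TPM, Cyp4f40 at 13.7 TPM and Cyp2r1, which hydroxylates vitamin D, at 12.1 TPM. Cyp2g1, a P450 best known from the olfactory mucosa, had a mean of 2.28 TPM, and Cyp1b1, an Ahr-responsive enzyme found mostly outside hepatocytes, had 1.47 TPM. The other 6 members did not pass the filter on low counts. Of these, Cyp1a1, the classical Ahr target, had a mean of 0.126 TPM and was at 0 in 14 of 37 libraries, Cyp2s1 had 0.103 TPM and Cyp4x1 0.0766 TPM. Cyp2t4, Cyp2w1 and Cyp4f39 were listed at 0 in all 38 libraries.

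**Figure D1:**
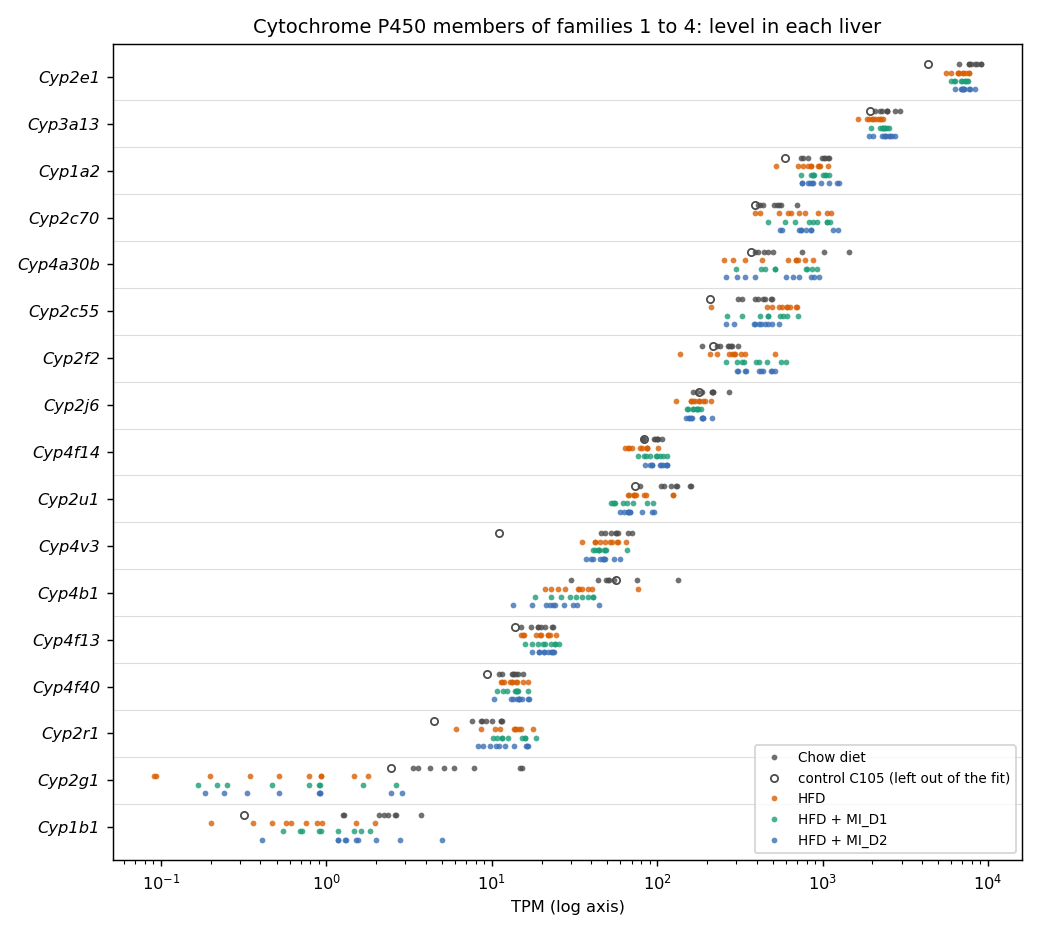
TPM (log axis) of the 17 tested members in each liver, by group (colours), with control C105 as an open circle. Cyp2e1 lies highest in every group, and Cyp2g1 and Cyp1b1 lie lowest, with the widest spread between livers. The Dose II liver with Cyp2g1 at 0 is not drawn on the log axis.

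Family 2 took most of the summed TPM of the members. Its sum was 9652 ± 893 TPM (SD, n = 8) in the control group, 8665 ± 903 (n = 10) in the HFD group, 8876 ± 583 (n = 9) at Dose I and 9134 ± 647 (n = 10) at Dose II, which was 69.1%, 70.3%, 68.5% and 68.9% of the members' total. Cyp3a13, the only named member of family 3, stood at 2452 ± 280.0 TPM in the control group, 2042 ± 207 in the HFD group, 2320.1 ± 156 at Dose I and 2379 ± 259 at Dose II. The family 1 sum, nearly all of it Cyp1a2, was 946 ± 145, 846 ± 157, 935 ± 113.6 and 946 ± 184 TPM in the same order. For family 4, the sums were 923 ± 385, 764 ± 225, 831 ± 229.7 and 805 ± 266 TPM. The total over all 23 members was 13973 ± 1197 TPM in the control livers, 12317 ± 1282 in the HFD livers, 12962 ± 713 at Dose I and 13264 ± 1010.4 at Dose II. These sums are a description, and for each of the 4 families the ranges of all 4 groups overlapped. In C105 the total was 8485 TPM, below every other library.

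**Figure D2:**
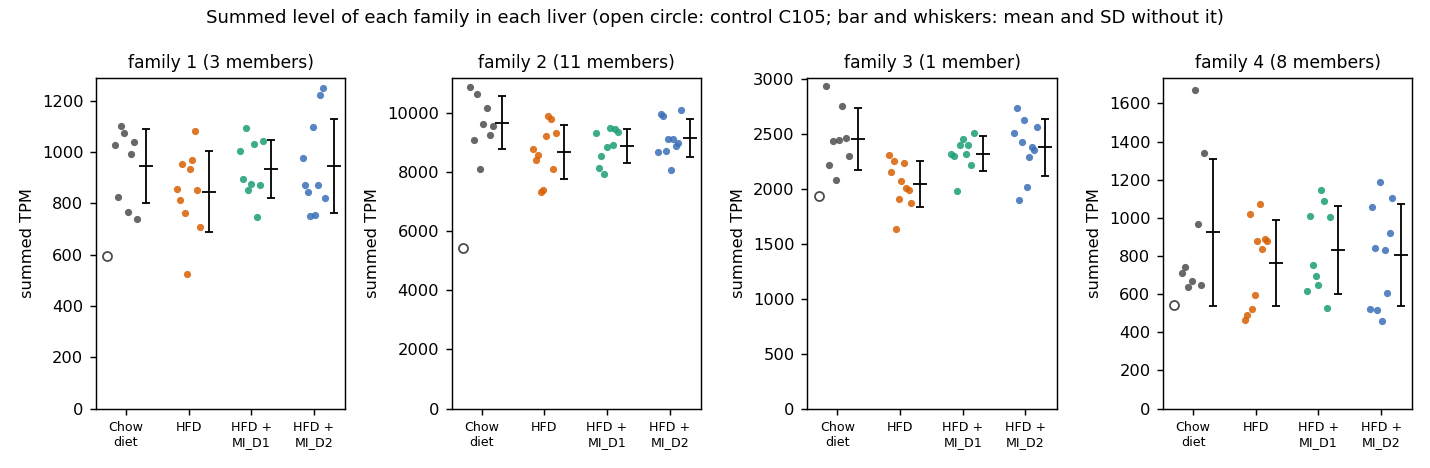
Summed TPM of each family in each liver, by group, with mean and SD (bar and whiskers) of the 37 libraries and control C105 as an open circle. The HFD group has the lowest mean in all 4 families, and the ranges of the 4 groups overlap.

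The first comparison asks how the HFD changed these genes against the normal diet. Of the 17 tested members, 8 fell, 3 rose and 6 did not pass at an adjusted p under 0.1, so 64.7% of the members were called, while 36.2% of all 9099 tested genes were. Of all tested genes 18.1% were called higher and 18.1% lower. Calls come from the quasi-likelihood F test of edgeR, with p-values adjusted by Benjamini-Hochberg over all tested genes. The median log2 fold change was -0.23 over the members and 0.01 over all tested genes. With C105 included, 11 members were called again, 8 lower and 3 higher. Shares of all tested genes, here and below, belong to the fit without C105 and were not computed with it. Values per liver are given below in CPM, counts scaled by the TMM-adjusted library total, which serve to compare livers but not genes.

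Cyp2g1 showed the largest difference of any member. In the control livers it ran from 6.45 to 26.7 CPM (median 10.2), in the HFD livers from 0.174 to 3.22 (median 1.22), in the Dose I livers from 0.337 to 4.74 (median 1.54) and in those of Dose II from 0 to 5.65 (median 1.34). No HFD liver reached the lowest control, C105 with 6.41 CPM included, and over the 37 libraries no other member separated these groups. Groups without overlap, in either direction, were found for 1.79% of all tested genes. The log2 fold change was -3.30 (adjusted p = 5.46e-06, SE 0.47), and with C105 it was -3.22 (adjusted p = 1.64e-05). Estimated counts of Cyp2g1 in the HFD livers were only 1 to 23 per library, so its level there is known with little precision, and it was at 0 in 1 Dose II library. It passed the filter on low counts through the control livers, and in fits of the HFD group with either dose group alone it did not pass.

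Cyp1b1 had the next largest fall. It ran from 6.24 to 17.8 CPM (median 10.6) in the control livers and from 1.004 to 9.52 (median 3.18) in the HFD livers, so the ranges overlapped, and the log2 fold change was -1.46 (adjusted p = 0.00140, SE 0.33). C105 held 2.14 CPM, lower than the other 8 controls, and with it the log2 fold change was -1.33 (adjusted p = 0.0124). Cyp4b1 fell from 128.9 ± 66.2 CPM (SD, n = 8) to 76.2 ± 35.97 CPM (SD, n = 10), a log2 fold change of -0.76 (adjusted p = 0.0135, SE 0.23), and with C105 -0.80 (adjusted p = 0.0194). For this gene 1 control at 279 CPM and 1 HFD liver at 169.8 CPM lay far above the others of their groups. Leaving out single libraries kept the log2 fold change between -0.97 (without H112) and -0.48 (without C109), past the threshold each time. Cyp2u1 ran from 318 to 648 CPM (median 519) in the control livers and from 269 to 539.7 (median 305) in the HFD livers, with a log2 fold change of -0.53 (adjusted p = 0.00475, SE 0.14), and with C105 -0.51 (adjusted p = 0.0165). Of the 10 HFD livers, 4 lay within the range of the control livers and 6 below it.

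Cyp2e1 and Cyp3a13, the most abundant members, fell by smaller amounts. Cyp2e1 went from 20842 ± 2187 CPM (SD, n = 8) to 17727 ± 1953 CPM (SD, n = 10), with a log2 fold change of -0.23 (adjusted p = 0.0135, SE 0.07). For Cyp2e1, C105 at 15773 CPM lay within the HFD range, and with it the log2 fold change was -0.19 (adjusted p = 0.0940). Cyp3a13 went from 4414 ± 612 CPM (SD, n = 8) to 3723 ± 477 CPM (SD, n = 10), with a log2 fold change of -0.25 (adjusted p = 0.0290, SE 0.09). Of the members that act on eicosanoids and fatty acids, Cyp2j6 had a log2 fold change of -0.23 (adjusted p = 0.0463, SE 0.09) and Cyp4f14 one of -0.26 (adjusted p = 0.0437, SE 0.10). With C105 the values were -0.26 (adjusted p = 0.0420) for Cyp3a13, -0.27 (adjusted p = 0.0504) for Cyp2j6 and -0.29 (adjusted p = 0.0495) for Cyp4f14. For each of these 4 genes the groups overlapped, and leaving out single libraries lost the call of Cyp2j6 once (without C109) and that of Cyp4f14 once (without H118).

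Members that rose were all of family 2. Cyp2c70 ran from 655 to 1239.7 CPM (median 877) in the control livers and from 668 to 1951 (median 1241) in the HFD livers, a log2 fold change of 0.51 (adjusted p = 0.0394, SE 0.19). Cyp2c55 rose from 625 ± 111.7 CPM (SD, n = 8) to 844 ± 208 CPM (SD, n = 10), with a log2 fold change of 0.43 (adjusted p = 0.0552, SE 0.17). Cyp2r1 rose from 21.1 ± 3.67 CPM (SD, n = 8) to 27.2 ± 7.203 CPM (SD, n = 10), with a log2 fold change of 0.37 (adjusted p = 0.0775, SE 0.16). With C105 the values were 0.50 (adjusted p = 0.0710) for Cyp2c70, 0.48 (adjusted p = 0.0628) for Cyp2c55 and 0.42 (adjusted p = 0.0812) for Cyp2r1. Leaving out 1 library lost the call of Cyp2r1 in 8 of 37 cases (4 controls and 4 HFD livers) and that of Cyp2c55 in 2 (controls C104 and C106), and both were lost with limma-trend on log2(TPM + 1) and at a threshold of 0.05. Cyp2r1 was also lost with no filter on low counts.

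The other 6 tested members did not pass, with or without C105. Cyp1a2 had a log2 fold change of -0.14 with a 95% interval of -0.39 to 0.10, Cyp2f2 of 0.19 (-0.17 to 0.55) and Cyp4v3 of -0.18 (-0.40 to 0.03), which was -0.07 (adjusted p = 0.814) with C105. Intervals of Cyp4f13 (-0.24 to 0.13) and Cyp4f40 (-0.16 to 0.21) included 0. That of Cyp4f13 also held a fall as large as the one called for Cyp2e1 (-0.23). Cyp4a30b, whose subfamily is known as a target of Ppara, had a log2 fold change of -0.23 with an interval of -0.79 to 0.32. In the control livers it ran from 531 to 1942 CPM (median 669.5) and in the HFD livers from 383 to 1257 (median 875).

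**Figure D3:**
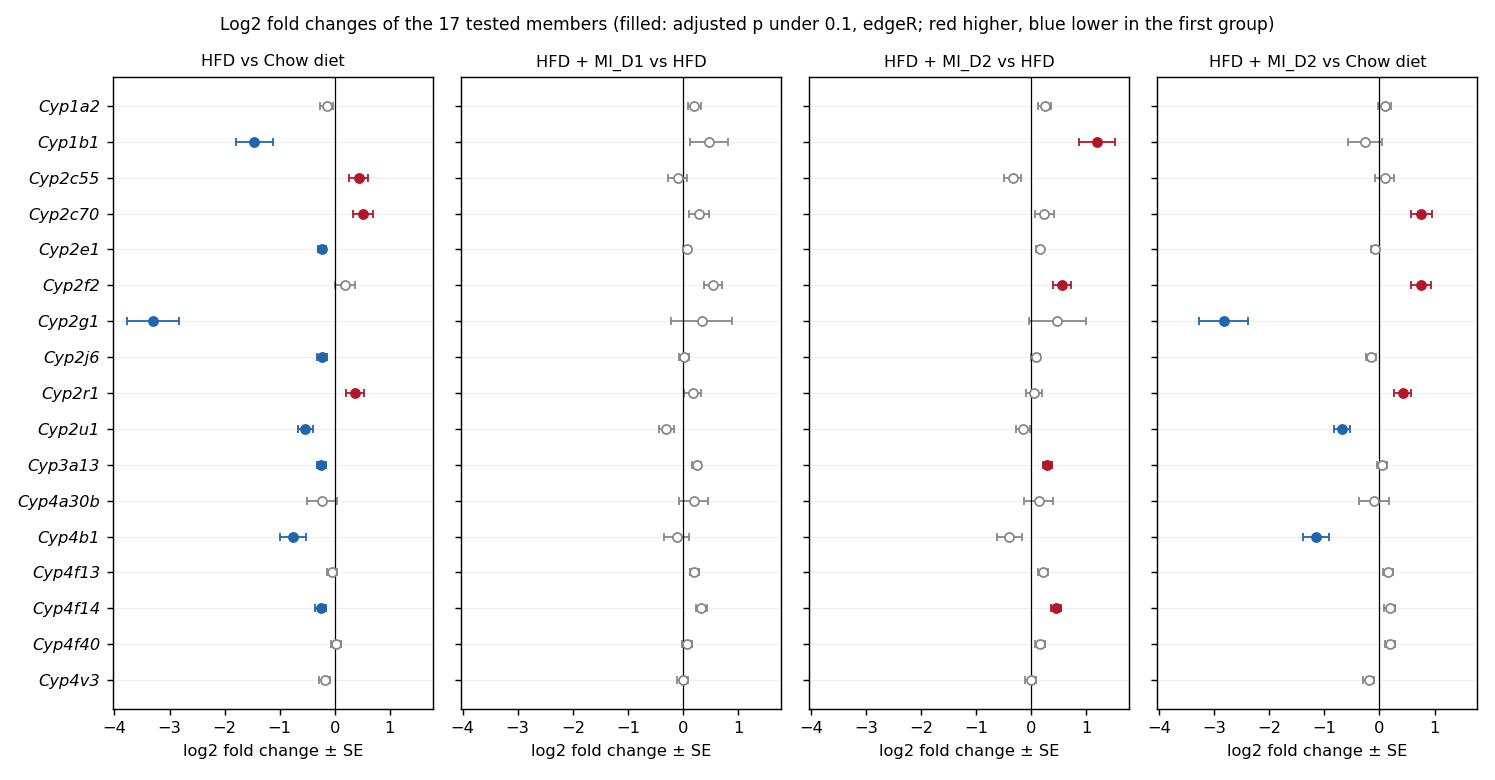
Log2 fold change with its SE for the 17 tested members in 4 comparisons, filled where the adjusted p from edgeR was under 0.1 (red for a rise, blue for a fall). HFD vs control shows 8 falls and 3 rises, Dose I vs HFD shows none, Dose II vs HFD shows 4 rises, and Dose II vs control shows 3 rises and 3 falls.

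The next comparisons ask what CMA changed on the HFD. Dose II raised 4 of the 17 tested members over the HFD group and lowered 0 (23.5%), while 5.63% of all tested genes were called, 3.37% higher and 2.25% lower. These were Cyp4f14, Cyp1b1, Cyp3a13 and Cyp2f2, and the same number was called with C105 in the fit, with DESeq2, with limma-trend on log2(TPM + 1) and under every other setting but a threshold of 0.05, which left 3. The median log2 fold change was 0.16 over the members and -0.00401 over all tested genes. None of the 17 members separated the groups without overlap, as 0.121% of all tested genes did.

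Cyp4f14, the leukotriene and fatty acid hydroxylase, ran from 144 to 253 CPM (median 189) in the HFD livers, from 186 to 274 (median 245) in the Dose I livers, from 192 to 303 (median 252) in those of Dose II and from 182 to 244 (median 230.0) in the control livers. Its log2 fold change for Dose II vs. HFD was 0.44 (adjusted p = 0.00532, SE 0.09). Cyp1b1 ran from 2.14 to 24.5 CPM (median 7.51) at Dose II, with the highest liver (DII130) far above the next, and its log2 fold change was 1.19 (adjusted p = 0.0326, SE 0.32). Leaving out single libraries moved that value between 0.90 and 1.43 and left the call in all 37 cases. 

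Cyp3a13 ran from 2923 to 4513 CPM (median 3557) in the HFD livers, from 3466 to 4886 (median 4406) in the Dose I livers and from 3389 to 5087 (median 4709.7) in those of Dose II. All 3 ranges overlapped, and the mean rose from 3723 ± 477 CPM (SD, n = 10) to 4553 ± 533 CPM (SD, n = 10), a log2 fold change of 0.29 (adjusted p = 0.0405, SE 0.08) for Dose II vs. HFD. Cyp2f2 ran from 251 to 1012 CPM (median 517) in the HFD livers, where H110 lay above the other 9, from 520.0 to 1149 (median 725) in the Dose I livers and from 558 to 1054 (median 802) in those of Dose II. Its mean rose from 531 ± 199.9 CPM (SD, n = 10) to 783 ± 172 CPM (SD, n = 10), with a log2 fold change of 0.56 (adjusted p = 0.0569, SE 0.17). The call of Cyp2f2 was lost in 4 of 37 cases when 1 library was left out (H113, H114, DII135 or DII136), with an adjusted p of at most 0.116 from edgeR.

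Among the 13 members that did not pass at Dose II, 4 had an unadjusted p under 0.05. Cyp2e1 was at 0.15 (0.02 to 0.29), Cyp1a2 at 0.24 (0.01 to 0.47), Cyp4f13 at 0.21 (0.04 to 0.39) and Cyp2c55 at -0.34 (-0.66 to -0.01) in log2 fold change with its 95% interval. Mean Cyp2e1 was 18661 ± 1754 CPM (SD, n = 9) at Dose I and 19726 ± 1287 CPM (SD, n = 10) at Dose II, against 17727 in the HFD group. Cyp2g1, the member with the largest fall on the HFD, had an interval of -0.59 to 1.54. Cyp2u1 was at -0.15 (-0.42 to 0.12) and Cyp4b1 at -0.40 (-0.84 to 0.05).

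At Dose I none of the 17 members passed against the HFD group in edgeR, where 0.187% of all tested genes did (0.154% higher and 0.0330% lower). No member separated the groups without overlap, as 0.0110% of all tested genes did. An unadjusted p under 0.05 was found for 5 members, and DESeq2 called 1 of them, Cyp4f14. Its log2 fold change was 0.33 (adjusted p = 0.157, SE 0.09) from edgeR. Cyp2f2 was at 0.54 (adjusted p = 0.234, SE 0.17) and Cyp3a13 at 0.25 (adjusted p = 0.301, SE 0.08). Cyp4f13 had a log2 fold change of 0.21 (0.03 to 0.39) and Cyp2u1 one of -0.30 (-0.58 to -0.02). Without HFD library H110, Cyp4f14 and Cyp2f2 passed (adjusted p = 0.0605 for each in edgeR), so the count of 0 rests on that library. The other 36 libraries left out in turn gave 0.

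A difference between the doses was tested directly. Dose II vs. Dose I called 0 members and 0% of all tested genes in edgeR, 1 member (Cyp1b1) had an unadjusted p under 0.05, and DESeq2 called 0 members. Cyp1b1 had a log2 fold change of 0.71 (adjusted p = 0.9999, SE 0.32) with a 95% interval of 0.07 to 1.36, higher at Dose II. For the other members raised at Dose II, the interval of the difference between doses was -0.08 to 0.30 for Cyp4f14, -0.12 to 0.21 for Cyp3a13 and -0.33 to 0.36 for Cyp2f2. For Cyp4f14, Cyp3a13 and Cyp2f2, differences between the doses within these intervals cannot be told from 0 with these livers. The interval of Cyp1b1 lay above 0, but it is not adjusted for the number of genes tested.

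**Figure D4:**
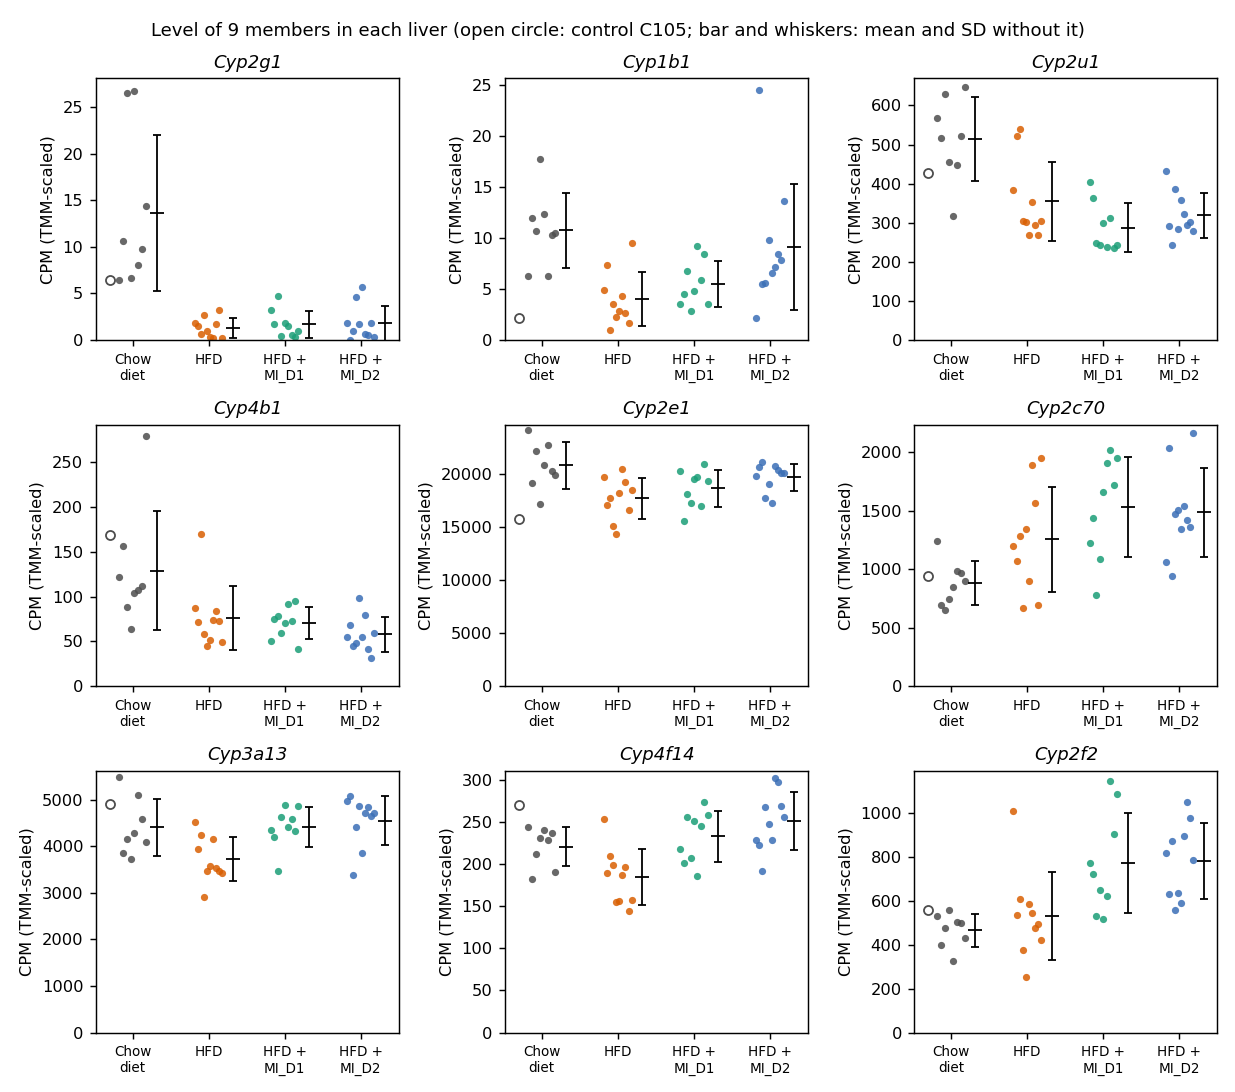
CPM of 9 members in each liver, by group, with mean and SD (bar and whiskers) of the 37 libraries and control C105 as an open circle. Cyp2g1 lies lower in every liver on the HFD, with or without CMA, than in every control liver, while Cyp4f14, Cyp3a13 and Cyp2f2 lie higher on average at both doses than in the HFD group.

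The CMA-treated livers were also set against the control group. At Dose I, 3 members rose and 6 fell against the controls, with 40.7% of all tested genes called, 20.6% higher and 20.1% lower. At Dose II, 3 rose and 3 fell, with 47.4% of all tested genes called, 23.9% higher and 23.4% lower. These comparisons share the control livers with HFD vs. control, so their values are given side by side and not counted as separate support. Cyp2g1 was lower by a log2 fold change of -2.95 at Dose I and -2.82 at Dose II, without overlap with the controls at either dose, as 3.67% and 4.96% of all tested genes were in either direction. Its means were only 1.70 CPM at Dose I and 1.81 CPM at Dose II. Because Cyp2g1 passed the filter on low counts through the control livers, its separation from them is a description only. Cyp2u1 ran from 235 to 405 CPM (median 249) at Dose I and from 243 to 433 (median 298) at Dose II, and Cyp4b1 from 41.8 to 94.6 (median 73.0) and from 31.2 to 97.9 (median 54.6). Against control, the log2 fold change of Cyp2u1 was -0.83 and -0.68, and Cyp4b1 at -0.87 and -1.15 (adjusted p of at most 0.00524 for these 4 values). Cyp2c70 was higher than control by 0.80 and 0.75, and Cyp2r1 by 0.55 and 0.42, all past the threshold in edgeR. With C105 in the fit, 8 members were called at Dose I, Cyp2e1 being lost (-0.12 (adjusted p = 0.308)), and 6 at Dose II. In that fit Cyp2g1 was at -2.88 and -2.75, Cyp2u1 at -0.81 and -0.66, Cyp4b1 at -0.91 and -1.20, Cyp2c70 at 0.79 and 0.74, and Cyp2r1 at 0.60 and 0.47, all past the threshold.

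Cyp2f2 passed against control at both doses and did not pass for HFD vs. control. It ran from 327 to 557 CPM (median 488) in the control livers and from 558 to 1054 (median 802) at Dose II, without overlap, with a log2 fold change of 0.75 (adjusted p = 0.000962, SE 0.18). At Dose I it was 0.73 (adjusted p = 0.00217, SE 0.18), and with C105 0.70 (adjusted p = 0.00623). C105, at 559 CPM, lay just above the lowest Dose II liver, and with it the log2 fold change at Dose II was 0.72 (adjusted p = 0.00242). Cyp1b1 was still lower than control at Dose I, -0.98 (adjusted p = 0.0214, SE 0.33), or -0.86 (adjusted p = 0.0865) with C105, and did not pass at Dose II, where the log2 fold change was -0.27 with an interval of -0.89 to 0.36. For Cyp3a13 and Cyp4f14 at Dose II the intervals against control were -0.13 to 0.22 and -0.01 to 0.38. Cyp2e1 and Cyp2j6 passed as lower than control at Dose I (adjusted p = 0.0921 and 0.0650 from edgeR) and did not pass at Dose II, where limma-trend on log2(TPM + 1) called both and the gene length offset called Cyp2j6. The Dose I call of Cyp2e1 held in only 22 of 37 fits with 1 library left out and in 3 of 8 other settings, and that of Cyp2j6 in 31 of 37 and 7 of 8. Dose II vs. Dose I gave log2 fold changes of 0.08 and 0.06 for them, neither past the threshold.

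Receptors that drive P450 genes moved in both directions on the HFD. Of 11 tested receptors and partners, 5 rose and 4 fell against control, with a median log2 fold change of 0.15, beside 18.1% higher, 18.1% lower and a median of 0.01 over all tested genes. With C105 in the fit, an alternative chosen for the lists after seeing the data, 1 rose and 3 fell. Ppara, the fatty acid receptor known for driving the Cyp4a genes, fell by 1.05 on the log2 scale (adjusted p = 0.000699, SE 0.22), and Ahr, which drives the Cyp1 genes, fell by 0.59 on the log2 scale (adjusted p = 0.0601, SE 0.24). Nr1i2, known for driving Cyp3a genes, rose by 0.39 (adjusted p = 0.00619, SE 0.11), and Nr1i3, known for driving Cyp2b and Cyp2c genes, by 0.25 (adjusted p = 0.0660, SE 0.10). With C105 the log2 fold changes were -0.90 (adjusted p = 0.0301) for Ppara, 0.34 (adjusted p = 0.0407) for Nr1i2, -0.44 (adjusted p = 0.323) for Ahr and 0.17 (adjusted p = 0.330) for Nr1i3, so the last 2 were no longer called. Ahr and Nr1i3 were named after their values were seen, and the other called genes of this list are not reported here. At Dose II, 1 of the 11 rose against HFD and 0 fell, with or without C105, beside 3.37% and 2.25% of all tested genes. The one that rose was Nr1i3, with a log2 fold change of 0.44 (adjusted p = 0.00983, SE 0.10). At Dose I none of the 11 passed against HFD in edgeR, where 0.187% of all tested genes did.

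Other targets of these receptors were counted with the P450 genes left out. Of 16 tested targets of Ppara, 4 fell and 0 rose on the HFD, with Cpt1a, the entry step of fatty acids into mitochondria, at -1.08 (adjusted p = 3.07e-05, SE 0.17). Over all tested genes 18.1% fell in this comparison. With C105, 4 of the 16 fell again, and Cpt1a was at -0.92 (adjusted p = 0.0142). Of 4 tested targets of Ahr, 0 rose and 0 fell. Among 5 tested electron donors and partners of P450, Cyb5r3, a reductase of cytochrome b5, fell by 0.30 on the log2 scale (adjusted p = 0.0539, SE 0.12) and the other 4 did not pass. With C105, Cyb5r3 was at -0.24 (adjusted p = 0.229). Of 12 genes of heme synthesis and breakdown, 4 rose and 2 fell on the HFD, beside 36.2% of all tested genes called, and with C105 1 rose (Hmox1) and 1 fell (Fech). Among them, Alad, the second enzyme of heme synthesis, rose by 0.44 (adjusted p = 0.00245, SE 0.11), Fech, which inserts iron as the last step, fell by 0.34 on the log2 scale (adjusted p = 0.00183, SE 0.08), and Hmox1, which breaks heme down, rose by 0.52 (adjusted p = 0.00117, SE 0.12). With C105, Alad was at 0.15 (adjusted p = 0.614). At Dose I vs. HFD, Hmox1 fell by 0.47 on the log2 scale (adjusted p = 0.0924, SE 0.11), and at Dose II vs. HFD it fell by 0.37 on the log2 scale (adjusted p = 0.0536, SE 0.11). It was the only one of the 12 that passed in these comparisons, and with C105 its values were -0.47 (adjusted p = 0.124) and -0.37 (adjusted p = 0.0800). Over all tested genes, 0.187% were called at Dose I vs. HFD (0.0330% lower) and 5.63% at Dose II vs. HFD (2.25% lower). Of the targets of Ppara, Plin2, a lipid droplet protein, fell by 1.41 on the log2 scale (adjusted p = 0.0864, SE 0.46) at Dose II vs. HFD, or -1.41 (adjusted p = 0.116) with C105, and no target of Ahr and no electron donor passed.

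Markers of liver cell types moved in the same comparisons, and their part in the values of the members was not tested. Of 9 tested hepatocyte markers, 2 rose on the HFD (Apoa2 and Ttr), 3 fell (Alb, Apob and Serpina1) and none passed at Dose II vs. HFD. Their summed level was 217613 to 255575 CPM in the control livers, 148315 to 208445 in the HFD livers, 152453 to 204414 at Dose I and 133012 to 203992 at Dose II. This sum weighs the most abundant markers most. The median log2 fold change over the 9 markers was -0.04 for HFD vs. control, beside 0.01 over all tested genes. For Kupffer cells and macrophages, 6 of 9 markers rose on the HFD and 0 fell, and 5 fell at Dose II vs. HFD. Their summed level was 188 to 259 CPM in control, 271 to 446 in HFD, 204 to 394 at Dose I and 188 to 354 at Dose II. For sinusoidal endothelium, 2 of 10 markers rose on the HFD and 2 fell at Dose II vs. HFD, with sums of 181 to 297, 192 to 383, 177 to 300.1 and 185 to 259.5 CPM in the same order. Of 8 tested markers of stellate cells and fibroblasts, 1 (Reln) fell on the HFD and 0 rose, and none passed at Dose II vs. HFD. Their sums were 178 to 312, 154 to 343, 154 to 327 and 152 to 230.3 CPM. Of 4 tested cholangiocyte markers, 1 (Krt19) rose on the HFD and none passed at Dose II vs. HFD, and all 6 in the tables summed to 4.24 to 11.3, 5.29 to 15.4, 5.44 to 14.7 and 5.77 to 10.1 CPM. Beside these counts, 36.2% of all tested genes were called for HFD vs. control and 5.63% for Dose II vs. HFD. Many of these calls were lost with C105 in the fit. Then 1 hepatocyte marker rose and 3 fell on the HFD, 2 Kupffer markers rose, and no marker of endothelium or cholangiocytes passed, while Reln was still called. At Dose II vs. HFD, 1 Kupffer marker and 1 endothelial marker fell. The share of all tested genes called in that fit was not computed. A drop in these or the other gene lists therefore cannot be told from a drop across all genes.

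At Dose I vs. HFD, no marker of these lists or of the zonation lists passed in edgeR, where 0.187% of all tested genes did. Zonation markers were checked beside the members that are zonated in the mouse. Of 5 tested pericentral markers outside the P450 genes, 2 fell (Slc1a2 and Oat) and 1 rose (Lect2) on the HFD, and none passed at Dose II vs. HFD. Their summed level was 1659 to 2714 CPM in control, 1571 to 2640.1 in HFD, 1691 to 2447 at Dose I and 1500.5 to 2364 at Dose II. Cyp2e1 and Cyp1a2, which are pericentral in the mouse, were at 0.15 and 0.24 in that comparison, neither past the threshold. Of 8 tested periportal markers, 2 fell on the HFD and 0 rose, beside 18.1% lower and 18.1% higher over all tested genes. With C105, 2 pericentral markers fell and 0 rose, and 1 periportal marker fell. At Dose II vs. HFD, 3 rose and 0 fell, with or without C105, beside 3.37% of all tested genes called higher. These were Sds, a serine-degrading enzyme, at 1.08 (adjusted p = 0.0691, SE 0.34), and the urea cycle enzymes Ass1 at 0.48 (adjusted p = 0.0344, SE 0.13) and Cps1 at 0.45 (adjusted p = 0.0338, SE 0.12). Cyp2f2, which is periportal in the mouse liver, rose in the same livers (adjusted p = 0.0569 from edgeR). Its call held in 33 of 37 fits with 1 library left out. A link between Cyp2f2 and these markers was not tested. Summed periportal markers were 8185 to 11035 CPM in control, 5233 to 11407 in HFD, 7328 to 16485 at Dose I and 8897 to 16869 at Dose II.

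Members differed widely in how much they varied between animals of a group. The SD of log2 CPM within groups, pooled over the 4 groups, had a median of 0.31 over the 17 members and of 0.28 over all 9045 genes that passed the filter in all 38 libraries. Cyp2e1 was the most even member at 0.14, followed by Cyp3a13 at 0.18, Cyp2j6 at 0.18 and Cyp4f40 at 0.19. Among abundant members, Cyp4a30b varied most, at 0.64. In the control livers Cyp4a30b reached 1062 to 1942 CPM in 3 of 8 and 531 to 669.8 CPM in the other 5. Cyp2c70 was at 0.43 and Cyp2c55 at 0.41. Cyp2g1 at 1.05 and Cyp1b1 at 0.73 were the most variable, and they were also the members with the fewest counts.

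Because members of a subfamily may share reads, their counts were also added up. The 4 Cyp4f members (Cyp4f39 at 0) summed to 328 ± 25.5 CPM (SD, n = 8) in the control group, 292 ± 37.4 (n = 10) in the HFD group, 349.7 ± 34.4 (n = 9) at Dose I and 372 ± 45.6 (n = 10) at Dose II, the same order as for Cyp4f14 alone. The 2 Cyp2c members summed to 1506 ± 274, 2100.4 ± 543, 2319 ± 605 and 2152 ± 467 CPM. Within this pair, Cyp2c70 had higher means in both dose groups (1532 and 1485 CPM) than in the HFD group (1257), and Cyp2c55 had lower ones (787 and 667 against 844 CPM), with none of these 4 differences past the threshold in edgeR.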

How the data were processed

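Whole-liver RNA was sequenced, and the authors ran kallisto against the MesAur1.0 assembly with Ensembl release 101 genes. They deposited estimated counts, not normalized, and TPM for 14631 gene symbols. Total estimated counts were 4.08e+06 to 1.04e+07 per library. Estimated counts were rounded, filtered with filterByExpr, TMM-normalized and modelled in edgeR 4.0.16 under R 4.3.3 with a mean for each group and quasi-likelihood F tests, with Benjamini-Hochberg adjustment over all 9099 tested genes and 0.1, the study's threshold. An SE is the absolute log2 fold change over the root of F, and intervals are 95%. The 37 libraries without control C105 were used, and all 38 as an alternative. CPM values use TMM factors of all 38 libraries.

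Members, gene lists and tests were chosen with earlier results of these data known. Named members are those called in at least 1 of 6 comparisons and the 10 with the highest mean TPM, and from other lists up to 3 genes per comparison with the smallest adjusted p, while Ahr, Nr1i3 and genes that spell out a small count were named after their values were seen. Some genes of these lists are not reported here. The alternatives tried were DESeq2 1.42.0, RLE factors, no filter, fits of 2 groups, an offset for each library's trend with gene length (lowess span 0.3), limma-trend (limma 3.58.1) on log2(TPM + 1) with a TPM of at least 0.5 in at least 8 libraries, 0.05 as threshold, and leaving out 1 library at a time. Simulated counts for 9099 genes had 100 randomly chosen genes changed at each size, far fewer than were called for HFD vs. control in the data. There edgeR recovered 96% of true log2 changes of 1 in HFD vs. control and 56% of those of 0.5, and in Dose II vs. HFD 95% and 58%. Recovery in the data can differ from these values, and recovery of the members was not tested.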

Additional observations from a re-analysis of the deposited data

Results flagged for a closer look

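Values of 1 animal lay far from the others of its group in 4 of 68 sets (17 members in 4 groups, log2 CPM, Dixon's gap test at 95%), and chance alone flags about 5% of such sets. Cyp2c55 was 347 CPM in HFD library H110, below the next HFD liver at 681 CPM. Cyp4b1 was 169.8 CPM in HFD library H112, above the next at 87.2 CPM. At Dose I, Cyp3a13 was 3466 CPM in library DI122, below the next at 4196 CPM, and Cyp4v3 was 106.5 CPM in library DI125, above the next at 79.4 CPM.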

How the results depend on the processing

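No paired analysis was possible because the library numbers run through all groups once and are shared by none. The number of called members stayed within 1.5 times the reported one under the 8 other settings in all 6 comparisons, except that DESeq2 called 1 member for Dose I vs. HFD, where edgeR called 0 (the cause was not tested). No call turned its direction under any setting. With the gene length offset, Dose II vs. control called 9 members in place of 6. Limma-trend on log2(TPM + 1) gave 2 rises and 6 falls there in place of 3 and 3, and 1 rise and 8 falls for HFD vs. control in place of 3 and 8. With each library left out in turn, the count ran from 9 to 11 for HFD vs. control, 0 to 2 for Dose I vs. HFD (2 without H110), 3 to 5 for Dose II vs. HFD, 0 throughout for Dose II vs. Dose I, 7 to 10 for Dose I vs. control and 6 to 10 for Dose II vs. control (10 without DII130). In HFD vs. control, Cyp2j6 lost its call without control C109 and Cyp4f14 without H118. Depth limits Cyp2g1 and Cyp1b1 most, and the 6 members under the filter cannot be compared at this depth.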

Other observations

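P450 genes of other families were counted beside the members. Of 9 tested genes of other P450 families, 1 rose and 2 fell on the HFD vs. control, beside 36.2% of all tested genes called, and with C105 1 rose and 0 fell. Cyp27a1, which oxidizes the side chain of cholesterol in bile acid synthesis, rose by a log2 fold change of 0.86 (adjusted p = 0.000276, SE 0.17), and Cyp39a1, an oxysterol hydroxylase, fell by 0.34 on the log2 scale (adjusted p = 0.0394, SE 0.12), or -0.26 (adjusted p = 0.234) with C105. Cyp26a1, which breaks down retinoic acid, had a log2 fold change of 2.60 (adjusted p = 0.0492, SE 0.55) at Dose I vs. HFD and of 2.72 (adjusted p = 0.00333, SE 0.53) at Dose II vs. HFD, larger than that of any member of families 1 to 4 in these comparisons. Its level went from 1.17 ± 0.556 CPM (SD, n = 10) in the HFD group to 7.89 ± 7.71 CPM (SD, n = 10) at Dose II. At Dose II vs. HFD, 1 gene of the list rose and 1 fell, beside 5.63% of all tested genes called. The one that fell was Cyp27b1, which activates vitamin D, with a log2 fold change of -0.55 (adjusted p = 0.0798, SE 0.18), or -0.55 (adjusted p = 0.112) with C105. The adjusted p-values are from edgeR over all tested genes.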
